A study of Mus musculus with 6 samples.

Results

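A set of 10 genes known as markers of the leptomeninges was followed through bulk RNA sequencing of mouse dorsal root ganglia. They were Ptgds, Slc47a1, Aldh1a2, Igf2, Foxc1, Msln, Slc22a6, Slc22a8, Crabp2 and Cldn1, and they were found by symbol, 10 of the 48401 gene rows in each library. The genes were chosen by their lower levels under siCLAP, seen in these same libraries. Their levels are therefore given as a description, with no p-value for the group difference, and intervals on low counts cover counting error only.

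The ganglia were the L4/5 dorsal root ganglia, which hold the cell bodies of sensory neurons beside the spinal cord. They came from male C57BL/6J mice aged 8 weeks. All mice had been injected intrathecally, that is into the cerebrospinal fluid space, with a small interfering RNA. It was siNC, taken here as the control, in 3 libraries and siCLAP, directed at the long noncoding RNA CLAP, in the other 3. The dose and the interval after injection are not known here, and the labels do not say whether each library came from a separate mouse, so any p-value measures only the spread between these libraries, which may be technical. Total expected counts ran from 21386768 in siNC-3 to 46317735 in siNC-2. The neuronal markers Tubb3 and Prph, at 3530 to 4000 and 2540 to 2850 TPM (abundance per gene length, scaled to the same total in each library), showed the neuronal content of the tissue. CLAP itself was not analysed here.

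The leptomeninges are the pia and the arachnoid, the thin membranes that enclose the cerebrospinal fluid and continue for a short way along the nerve roots towards the ganglia. Their fibroblasts secrete matrix and retinoic acid. Their arachnoid barrier cells are sealed by tight junctions and carry transporters that clear organic ions from the fluid. Several of the 10 genes are not exclusive to these membranes. Cldn1 is also a tight junction protein of the perineurium, Igf2 is made by several mesenchymal cell types, and Msln is a surface protein of mesothelium.

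The 10 genes lie on 9 chromosomes, and only Slc22a8 and Slc22a6 are neighbours, on the same strand of chromosome 19 and separated by 6204 bases (GRCm38, GENCODE M21). Promoter sequences from RefSeq (GRCm38.p6) were on hand for 7 of the genes. The windows below are shown because they mark the range of promoter types among genes whose levels were high in the same libraries. Each covers the 250 bases before a RefSeq transcription start, 5′ to 3′ on the gene's strand, outside GENCODE exons. The Aldh1a2 window is chr9:71215539-71215788 (plus strand), the Slc22a6 window chr19:8617746-8617995 (plus strand), and the Igf2 window, 1 of 4 for that gene, chr7:142657497-142657746 (minus strand). Capitals mark the CCAAT box (CCAAT) and the GC box (GGGCGG), each searched on both strands.
Aldh1a2: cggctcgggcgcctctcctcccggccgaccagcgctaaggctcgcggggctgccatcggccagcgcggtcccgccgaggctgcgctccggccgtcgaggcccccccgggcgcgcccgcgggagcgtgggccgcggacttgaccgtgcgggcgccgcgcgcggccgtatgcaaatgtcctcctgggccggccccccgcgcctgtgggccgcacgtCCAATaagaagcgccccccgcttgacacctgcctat
Slc22a6: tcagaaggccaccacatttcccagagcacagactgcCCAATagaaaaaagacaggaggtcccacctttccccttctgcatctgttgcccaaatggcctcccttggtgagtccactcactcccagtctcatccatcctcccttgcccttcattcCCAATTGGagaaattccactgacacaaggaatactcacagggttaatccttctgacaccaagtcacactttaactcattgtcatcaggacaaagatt
Igf2: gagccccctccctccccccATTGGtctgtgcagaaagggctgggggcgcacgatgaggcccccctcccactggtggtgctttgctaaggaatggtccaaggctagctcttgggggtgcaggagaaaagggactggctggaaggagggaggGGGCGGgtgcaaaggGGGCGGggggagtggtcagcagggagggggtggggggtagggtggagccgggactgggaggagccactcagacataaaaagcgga

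The Aldh1a2 window held 40 CpG dinucleotides, 1.07 times the number its base composition predicts, which exceeded 97.1% of 32851 mouse promoter windows of this length. That of Slc22a6 held 0, and that of Igf2 held 6, or 0.25 of the predicted number. A CCAAT box was present in these 3 windows, in 4 of the 10 windows of the marker genes and in 33.8% of all promoter windows. In Slc22a6, 2 of its 3 CCAAT matches overlap in the run CCAATTGG, which reads the same on both strands. A GC box was present in 4 of the 10 windows of the marker genes and in 32.7% of all windows. The forkhead motif GTAAACA matched 0 of the 10 windows and 3.17% of all windows. The nuclear receptor half-site AGGTCA matched 1 of the 10, the most upstream Igf2 window, and 14.0% of all. TGAGTCA, the AP-1 motif, matched 1 of the 10, that of Ptgds, and 4.46% of all, while the TATA box letters TATAAA matched 0 of the 10 and 12.4% of all. The windows thus shared no promoter type by CpG content, and the motif counts are too small to set the genes apart.

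Ptgds was by far the most abundant of the genes. In siNC its mean was 67.1 ± 41.4 TPM (SD, n = 3), above 84.9% of the 19141 genes that passed a filter of a mean of 1 TPM over the 6 libraries. Cldn1 and Igf2 followed at 11.8 ± 3.70 and 10.2 ± 9.03 TPM. Aldh1a2, Foxc1, Crabp2, Msln and Slc47a1 lay between 2.04 and 3.47 TPM, Slc22a8 at 1.06 ± 0.991 TPM and Slc22a6 at 0.243 ± 0.151 TPM. Only the step from Ptgds to Cldn1 exceeded the larger SD of the neighbouring pair, so the order of the other genes is not fixed beyond the spread of the control libraries. Slc22a6 and Slc22a8 did not pass the filter.

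Ptgds encodes the lipocalin-type synthase of prostaglandin D2, which the leptomeninges secrete into the cerebrospinal fluid (chromosome 2, 25466709 to 25470046). Values per library are given throughout in the order of the replicate numbers. Ptgds stood at 90.3, 19.3 and 91.7 TPM in the siNC libraries, and at 13.5, 6.67 and 3.63 TPM in the siCLAP libraries. The groups did not overlap, but siNC-2 was much nearer to siCLAP-1 than to the other controls. The fitted log2 fold change of siCLAP against siNC was −2.96 ± 0.56 (SE, on counts scaled to library size), and it ran from −3.68 without siCLAP-1 to −2.62 without siCLAP-3. In bulk ganglia, fewer cells of a type and less RNA per cell cannot be told apart.

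Aldh1a2, the enzyme that makes retinoic acid in the meninges (chromosome 9, 71215789 to 71296243), had the widest range. Its levels were 2.34, 0.323 and 7.75 TPM in the siNC libraries and 0.293, 0.0439 and 0.117 TPM in the siCLAP libraries, resting on 71, 13 and 142.5 counts against 10, 1 and 3. The control libraries differed from each other by 24.0-fold. siNC-2 was 1.10 times as high as siCLAP-1, and the 95% Poisson intervals of these libraries (0.172 to 0.553 and 0.140 to 0.538 TPM, counting error only) overlapped almost wholly, so a difference between them was not detectable at this depth. The log2 fold change was −4.15 ± 1.09, and it ran from −5.15 without siCLAP-1 to −3.79 without siCLAP-2. Without siNC-3, the highest control, Aldh1a2 missed the filter and gave no value.

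Crabp2, which carries retinoic acid to its nuclear receptors, did not share that contrast. It stood at 3.53, 1.51 and 4.23 TPM in siNC and 2.78, 3.09 and 1.71 TPM in siCLAP. The lowest of all 6 values was that of siNC-2, and all 3 siCLAP values lay inside the control range. Its log2 fold change of −0.18 ± 0.36 turned to 0.06 without siNC-3 and to 0.03 without siCLAP-3.

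The 3 transporter genes were low, and in each the groups did not overlap. Slc47a1, a multidrug and toxin extruder that exports organic cations, was at 1.59, 1.40 and 3.12 TPM in siNC and 0.818, 0.530 and 0.265 TPM in siCLAP. Its log2 fold change of −1.78 ± 0.38 ran from −2.29 without siCLAP-1 to −1.46 without siCLAP-3. Without siNC-3 Slc47a1 missed the filter and gave no value. It had the narrowest gap among the genes between siNC-1 and siNC-2, at 1.13-fold. Slc22a8, an organic anion transporter of barrier epithelia, was at 0.837, 0.194 and 2.14 TPM against 0.133, 0.171 and 0.0762 TPM, on 112 counts in siNC and 16 in siCLAP. Slc22a6, its neighbour and paralog, was at 0.353, 0.0699 and 0.306 TPM against 0.0165, 0.0493 and 0 TPM. The 0 in siCLAP-3 allows up to 0.0659 TPM, the level of 3 counts. Over the groups Slc22a6 had 34 counts against 3, a ratio per total count of 10.4 with a 95% exact binomial interval of 3.27 to 52.9 for counting error only. For Slc22a8 the same ratio was 6.42. In both genes siNC-2 stood just above the highest siCLAP library, siCLAP-2, by 1.42 and 1.13 times, within their counting intervals.

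Igf2 encodes insulin-like growth factor 2, an imprinted growth factor (chromosome 7, 142650766 to 142666816). It stood at 8.36, 2.18 and 20.0 TPM in siNC and 3.87, 1.87 and 1.29 TPM in siCLAP. The groups overlapped, since siNC-2 lay below siCLAP-1. The log2 fold change was −1.98 ± 0.63, −1.09 without siNC-3 and −2.61 without siCLAP-1. Igf2 shares exonic bases with the annotated gene Gm49394 on its own strand and with the antisense gene Igf2os. Igf2os had at most 4 counts in a library, but without strand information its reads and those of Igf2 cannot be told apart.

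Msln, the gene of mesothelin (chromosome 17), was at 1.61, 0.931 and 6.08 TPM in siNC and 0.878, 0.658 and 1.0 TPM in siCLAP. Only siNC-1 and siNC-3 exceeded every siCLAP library, and siNC-3 stood 3.78 times above siNC-1. The log2 fold change of −1.57 ± 0.60 was −0.54 without siNC-3.

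Cldn1, the barrier claudin, was at 14.9, 7.69 and 12.8 TPM in siNC and 9.07, 11.2 and 7.75 TPM in siCLAP, and siNC-2 was again the lowest library of all. Its log2 fold change of −0.31 ± 0.21 ran from −0.55 without siNC-2 to −0.09 without siNC-1. Foxc1, a forkhead transcription factor required for the meninges to form (chromosome 13), was at 3.59, 1.93 and 3.76 TPM in siNC and 1.75, 2.74 and 1.75 TPM in siCLAP. Its groups overlapped through siNC-2 and siCLAP-2, and its log2 fold change of −0.54 ± 0.25 ran from −0.81 without siNC-2 to −0.39 without siNC-1 or siNC-3. Like Crabp2, both genes were highest within siCLAP in siCLAP-2, whereas Ptgds, Slc47a1, Aldh1a2 and Igf2 were highest there in siCLAP-1.

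**Figure D1:**
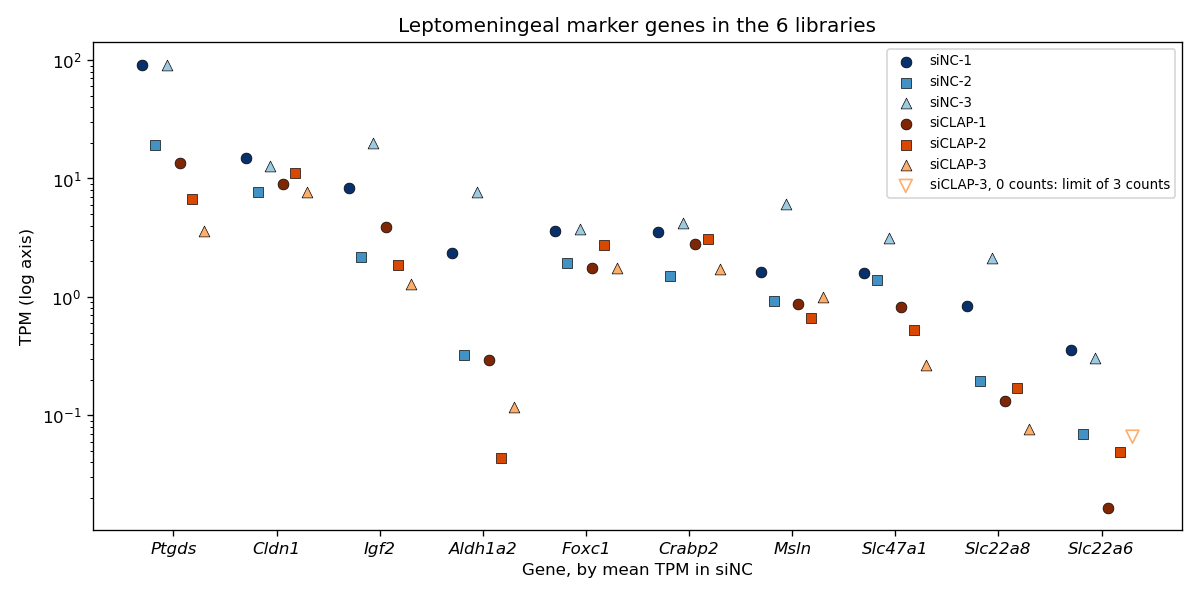
TPM (log axis) of the 10 leptomeningeal marker genes in each of the 6 libraries, blue for siNC and orange to brown for siCLAP; each point is 1 library and the open triangle is the limit of 3 counts where the count was 0. For every gene siNC-2 (blue square) is the lowest control, and for Igf2, Foxc1, Msln, Crabp2 and Cldn1 it lies below at least 1 siCLAP library.

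Across the 10 genes, 5 had all siCLAP values below all siNC values (Ptgds, Slc47a1, Aldh1a2, Slc22a6 and Slc22a8) and 0 had them all above. Of all 19141 genes that passed the filter, 12.2% were lower in siCLAP without overlap and 9.39% were higher. Among the 8 marker genes that passed, 3 were lower without overlap and all 8 estimates were below 0, as were 50.5% of all estimates, with a median log2 fold change of −1.67 beside −0.002 over all genes tested. Since this contrast chose the genes, nothing is read from these counts. The median was −0.47 without siNC-3, over 6 genes, because Aldh1a2 and Slc47a1 then fell under the filter.

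**Figure D2:**
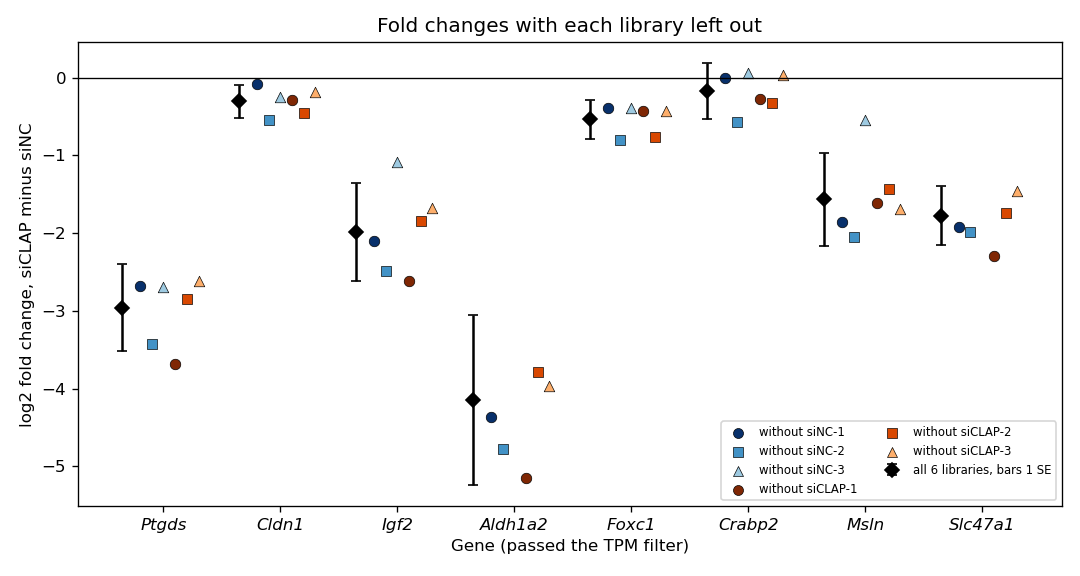
log2 fold change of siCLAP against siNC for the 8 marker genes that passed the TPM filter, with all libraries (diamond, bars 1 SE) and with each library left out (coloured points). Igf2 and Msln stand at −1.09 and −0.54 without siNC-3, Crabp2 crosses 0, and Aldh1a2 and Slc47a1 have no point without siNC-3 because they then miss the filter.

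The control libraries differed widely among themselves. In all 10 genes siNC-2 was the lowest control, an order that 39.8% of all tested genes showed. siNC-3 was the highest control in 8 of the genes and siNC-1 in Slc22a6 and Cldn1. The summed level of the 10 genes was 127, 35.6 and 152 TPM in siNC and 33.1, 27.1 and 17.6 TPM in siCLAP, so siNC-2 exceeded siCLAP-1 only slightly. Without Ptgds the sums were 37.1, 16.2 and 60.2 TPM against 19.6, 20.4 and 14.0 TPM, and the groups overlapped. siNC-2 was the deepest library and siNC-3 the shallowest, and the part of depth in these levels was not tested.

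The genes did not keep a fixed proportion to each other. Between siNC-1 and siNC-3, Ptgds, Foxc1, Crabp2, Slc22a6 and Cldn1 differed by at most 1.20-fold in either direction (0.862 to 1.20). Slc47a1, Igf2, Slc22a8, Aldh1a2 and Msln were 1.96, 2.39, 2.56, 3.31 and 3.78 times higher in siNC-3 than in siNC-1. The 2 retinoic acid genes thus fell on different sides of this division. Ptgds made up 54.4% to 70.9% of the summed level in siNC and 20.6% to 40.8% in siCLAP.

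**Figure D3:**
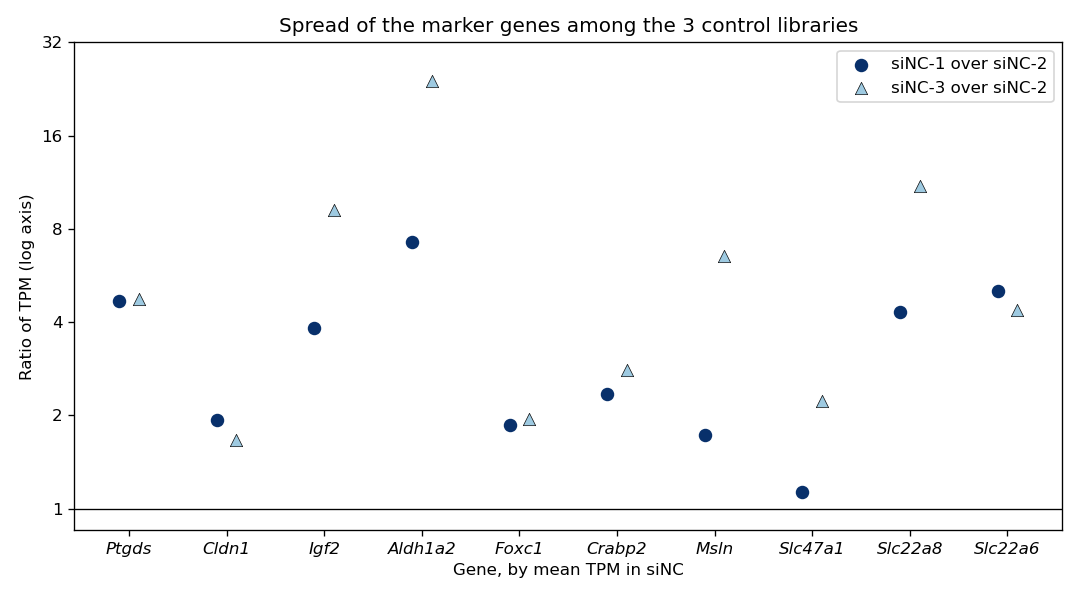
Ratio of TPM in siNC-1 (circles) and siNC-3 (triangles) to siNC-2 for each marker gene, on a log axis. All ratios lie above 1, from 1.13 (Slc47a1, siNC-1) to 24.0 (Aldh1a2, siNC-3).

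On log2(TPM + 0.5) all 45 pairs of the genes correlated positively over the 6 libraries, with Pearson's r from 0.52 (Msln with Cldn1) to 0.99 (Aldh1a2 with Slc22a8) and a median of 0.83. Aldh1a2 with Igf2 stood at 0.97, and Foxc1 with Cldn1 at 0.94. These are descriptions over 6 libraries that share the group difference and the high levels of siNC-1 and siNC-3. The spread within siNC was wide for the level of most of the genes. The SD of log2(TPM + 0.5) of Ptgds (1.27) and Igf2 (1.48) exceeded that of at least 99.5% of genes of similar mean level, while Foxc1 and Slc47a1 exceeded 87.0% and 76.1%. In siCLAP, Ptgds (0.88) and Igf2 (0.66) still exceeded 99.8% and 95.6% of such genes. Cldn1, Crabp2, Foxc1 and Slc47a1 exceeded 90.0%, 84.0%, 76.2% and 70.5% there, and Aldh1a2 (0.28) and Msln (0.19) exceeded 47.1% and 42.2%. The added 0.5 TPM narrows this SD at low levels, and similar level was judged over all 6 libraries, the higher siNC values included. In siCLAP Aldh1a2 lay wholly below 0.5 TPM, yet ranged 6.67-fold, on 10, 1 and 3 counts. Its 47.1% therefore does not show an ordinary spread.

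Other leptomeningeal fibroblast genes, none of them among the 10, were read from a list of 20, of which 16 passed the filter. This list and the related lists below were chosen with earlier results of these data known. Their counts are therefore a description and give no independent support to the contrast in the 10 genes. In edgeR's test 0 of the 16 passed after adjustment over all genes, 9 had an unadjusted p under 0.05 (beside 17.0% of all genes), and 15 estimates were below 0 (median −0.54, beside −0.002 over all genes). Without overlap, 3 of the 16 were lower in siCLAP (beside 12.2% of all genes) and 0 higher. siNC-2 was the lowest control in 16 of 16. The most abundant, Ogn, Islr and Wnt6, stood at −0.33 ± 0.09 (edgeR adjusted p = 0.117), −0.57 ± 0.21 (0.201) and −0.01 ± 0.09 (0.964). Ogn, which encodes the matrix proteoglycan osteoglycin, was at 120, 87.6 and 119 TPM in siNC and 84.5 to 85.6 TPM in siCLAP.

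Further genes of that list were picked out after their values were seen. Itih2, a hyaluronan-binding protein subunit, was at 2.36, 0.469 and 4.26 TPM in siNC and 1.17, 0.445 and 0.283 TPM in siCLAP (log2 fold change −1.66 ± 0.67, edgeR adjusted p = 0.247). Zic1, a zinc finger transcription factor of the meninges, was at 3.41, 2.22 and 4.62 TPM against 1.63, 1.85 and 1.72 TPM (−0.93 ± 0.22, edgeR adjusted p = 0.0835). The GABA transporter Slc6a13 was at 5.41, 2.48 and 5.32 TPM against 2.14, 1.42 and 2.30 TPM (−1.10 ± 0.29, edgeR adjusted p = 0.101). The sulfate transporter Slc13a4 and the gap junction genes Gjb2 and Gjb6 stood at −1.13, −0.78 and −0.91. The laminin genes Lama1 and Lamc3 stood at 0.07 and −0.10, so the list did not move as 1 block.

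**Figure D4:**
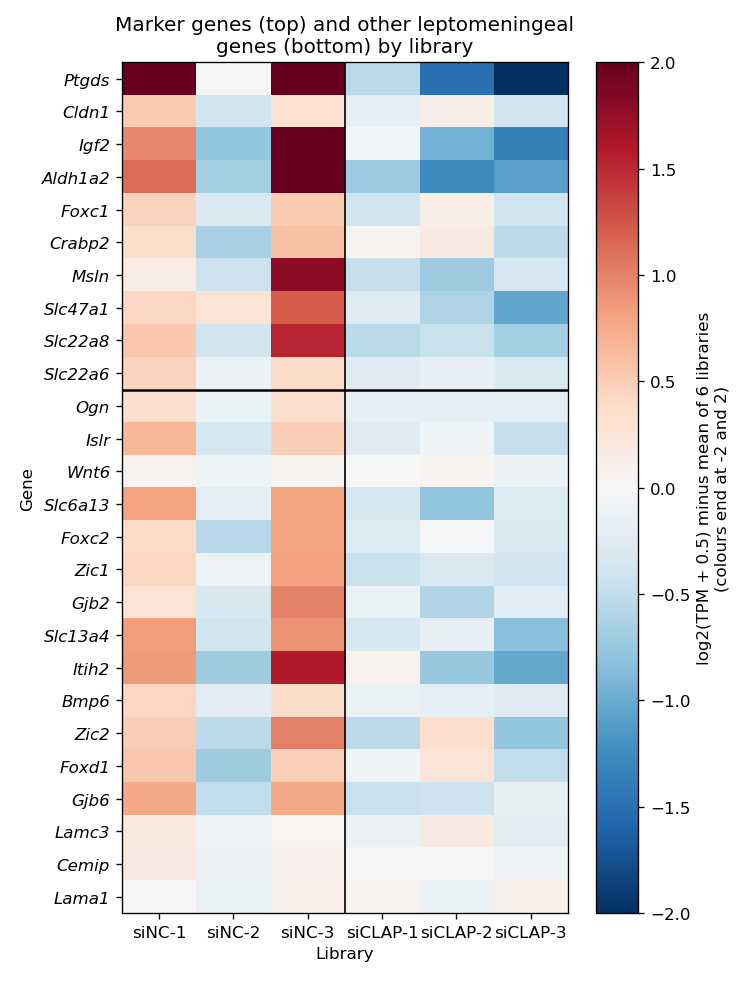
log2(TPM + 0.5) minus the mean of the 6 libraries for the 10 marker genes (above the line) and 16 other leptomeningeal fibroblast genes (below it), red higher and blue lower, with colours ending at −2 and 2. siNC-1 and siNC-3 are red in most rows, while siNC-2 is pale or blue in all rows but Slc47a1.

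Over all 20 related lists, 125 genes passed the filter and 0 changed in edgeR's test, beside 0.293% of all genes. At an unadjusted p under 0.05 there were 38 (28 lower and 10 higher), or 30.4% beside 17.0% of all genes. limma on log2(TPM + 0.5) called 0, and DESeq2 called 6, beside 4.38% of the 13942 genes to which it gave an adjusted p, with Ogn, Zic1, Cdh5 and Klf5 lower and Fabp7 and Nefh higher. With single libraries left out, edgeR called 0 of these genes without siNC-1, siNC-3 or siCLAP-1. It called 1 of 126 without siCLAP-2, beside 43 of all 19147 genes in that fit. Without siCLAP-3 it called 3 of 125, beside 336 of all 19172. Without siNC-2 it called 12, beside 0.819% of all genes in that fit, all lower: Ogn, Islr, Zic1, Slc6a13, Slc13a4, Gjb6 and Itih2 of the leptomeningeal list, and Cldn11, Stra6, Igfbp6, Itgb4 and Cdh5.

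Arachnoid barrier genes were mixed. Of 11 in the list 7 passed the filter, 0 changed, 5 had an unadjusted p under 0.05 (beside 17.0% of all genes), and 5 estimates were below 0 (median −0.15). Cldn11, a claudin of the arachnoid and of myelin, was at 10.9, 4.27 and 16.1 TPM in siNC and 5.60, 5.25 and 2.72 TPM in siCLAP (−1.11 ± 0.40, edgeR adjusted p = 0.197). The more abundant Jup, Cdh1 and Abcg2, encoding plakoglobin, E-cadherin and a drug efflux pump, stood at −0.03 ± 0.05, −0.15 ± 0.05 and 0.18 ± 0.05 (edgeR adjusted p = 0.834, 0.207 and 0.114). Klf5, Abcb1a and Perp stood at −0.32 ± 0.07, −0.36 ± 0.14 and 0.08 ± 0.12 (edgeR adjusted p = 0.08, 0.23 and 0.777). The part of other ganglion cells in the levels of these genes was not tested. The keratin genes Krt8 and Krt18 had at most 10 and 1 counts in a library. Dpp4, another barrier marker, was below the filter at 0.440, 0.128 and 0.911 TPM in siNC and 0.151 to 0.233 TPM in siCLAP.

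Around Aldh1a2 and Crabp2, the retinoic acid list had 14 of 16 genes past the filter, with 0 changed, 2 at an unadjusted p under 0.05, and a median of −0.05. Those 2 were Stra6, the retinol uptake receptor, and Rbp4, the retinol carrier. Stra6 was at 8.49, 4.35 and 13.0 TPM in siNC and 4.64 to 5.21 TPM in siCLAP (−0.73 ± 0.29, edgeR adjusted p = 0.241), and Rbp4 was at 1.32, 0.634 and 2.67 TPM against 0.373, 0.799 and 0.356 TPM (−1.46 ± 0.55, edgeR adjusted p = 0.214). The receptors Rarg, Rxrb and Rxrg, the most abundant of the list, stood between −0.07 and 0.01. Aldh1a1 and Aldh1a3, the other enzymes of retinoic acid synthesis, stood at −0.29 ± 0.14 and 0.21 ± 0.16.

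Around Igf2, 13 of 14 growth factor genes passed the filter, 0 changed and 4 had an unadjusted p under 0.05, beside 17.0% of all genes (list median −0.07). H19, the noncoding RNA of the same imprinted domain, was at 6.61, 1.02 and 15.7 TPM in siNC and 5.67, 2.60 and 2.97 TPM in siCLAP (−0.90 ± 0.66, edgeR adjusted p = 0.518). Its order within siNC was that of Igf2, while its ratio to Igf2 was 0.47 to 0.791 in siNC and 1.39 to 2.30 in siCLAP. Igfbp6, a binding protein with preference for Igf2, was at 53.4, 35.4 and 57.8 TPM against 35.2, 37.6 and 28.2 TPM (−0.50 ± 0.16, edgeR adjusted p = 0.155). Igfbp7 and Igfbp4 stood at 0.11 each, and the Igf2 clearance receptor Igf2r at −0.07 ± 0.06.

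In the families of the remaining marker genes 0 genes changed in edgeR's test. Ptgdr, a receptor for the product of Ptgds and the only 1 of 5 prostaglandin D2 genes past the filter, was at −0.08 ± 0.07 (edgeR adjusted p = 0.578), while Ptgs1, Ptgs2, Hpgds and Ptgdr2 were below it. Of 9 organic ion transporters past the filter 0 changed and 3 had an unadjusted p under 0.05, beside 17.0% of all genes (list median 0.01). Those 3 were Slc47a2, Slco2a1 and Slc22a3. Slc47a2, the paralog of Slc47a1, was at 5.00, 4.33 and 5.67 TPM against 3.99, 4.33 and 3.44 TPM (−0.32 ± 0.14), and Slco2a1, a prostaglandin transporter, stood at −0.38 ± 0.14. Slc22a3, an organic cation transporter, was higher in siCLAP without overlap, as were 9.39% of all genes. It was at 1.28, 0.932 and 0.949 TPM against 1.67, 1.63 and 1.41 TPM (0.59 ± 0.18, edgeR adjusted p = 0.139). The abundant Slc22a17, Slc22a18 and Abcc4 stood between 0.01 and 0.10. In the tight junction list 0 of 7 changed and 0 had an unadjusted p under 0.05, beside 17.0% of all genes. The list median was −0.08, with Cldn19, Tjp1 and Jam2 between −0.15 and −0.04. Among 6 forkhead genes past the filter 0 changed and 1 had an unadjusted p under 0.05, beside 17.0% of all genes. Foxc2, the paralog of Foxc1, was at 3.63, 1.61 and 4.92 TPM in siNC and 2.04 to 2.55 TPM in siCLAP (−0.52 ± 0.32), and Foxd3, Foxo1 and Foxp1 stood at 0.08, −0.06 and −0.16.

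Markers of other cells were read for the same libraries. The general fibroblast list summed to 347 to 530 TPM in siNC, lowest in siNC-2, and to 375 to 604 TPM in siCLAP, and siNC-2 was the lowest control in 8 of its 8 genes past the filter. Between the groups 0 of its genes changed, 3 had an unadjusted p under 0.05 (beside 17.0% of all genes), 6 of 8 estimates were below 0 and the median was −0.06. Col1a2 and Dcn stood at −0.11 ± 0.18 and 0.09 ± 0.16. Without overlap, 1 of the 8 was higher in siCLAP (beside 9.39% of all genes) and 2 were lower (beside 12.2%). The higher gene was Lum, at 0.67 ± 0.15 (edgeR adjusted p = 0.0795). The lower genes, picked out after their values were seen, were Clec3b and Pi16, at −0.77 ± 0.29 and −0.45 ± 0.20 (edgeR adjusted p = 0.22 and 0.283). The part of fibroblasts in the levels of the marker genes was not tested.

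Dural fibroblast genes (4 of 5 past the filter, 0 changed, median −0.04) summed to 21.0 to 44.0 TPM in siNC, again lowest in siNC-2, and to 27.4 to 35.5 TPM in siCLAP. Mgp, Fxyd5 and Crabp1 stood at −0.03, −0.06 and 0.38. Smoc2, the remaining dural gene past the filter, stood at −0.53 ± 0.31 (edgeR adjusted p = 0.412). It was at 3.61, 1.54 and 4.34 TPM in siNC and 1.83 to 2.66 TPM in siCLAP. Perineurial genes (6 of 6, 0 changed, 3 at an unadjusted p under 0.05 beside 17.0% of all genes, median −0.16) summed to 130 to 136 TPM in siNC and 116 to 117 TPM in siCLAP, groups that did not overlap. Slc2a1, Moxd1 and Itgb4 stood at −0.16, −0.16 and −0.36. The part of perineurium in the level of Cldn1 was not tested.

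Of the lists for mesothelium, choroid plexus and central glia, the markers with few or 0 counts are named first. In mesothelium Upk3b had 0 counts in all libraries and Wt1 at most 10. Krt19 and Upk1b, also below the filter, had 4.5 to 21 and 1 to 9 counts in a library. The list sums were 4.04 to 6.21 TPM in siNC and 4.07 to 4.89 TPM in siCLAP, and Lrrn4 and Bnc1 stood at −0.44 and 0.17. For choroid plexus Otx2 had 0 counts. Also below the filter, Clic6 had 22 to 61 counts in a library, Kcnj13 24.5 to 41, Kl 8 to 30.5 and Folr1 0 to 3. The choroid plexus sums were 2.92 to 4.08 and 2.65 to 3.49 TPM, with Ttr, which was the 1 gene past the filter, at 0.06 ± 0.31. For central glia Olig2 had at most 1 count and Olig1 at most 4, with sums of 11.2 to 11.6 TPM in siNC and up to 15.1 TPM in siCLAP, and Aldh1l1, Aqp4 and Gfap stood at 0.15, 0.23 and 0.66.

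In the cells of the ganglion itself 0 genes changed in edgeR's test in each list. The sensory neuron list summed to 9900 to 10400 TPM in siNC and 10600 to 11100 TPM in siCLAP, without overlap, with Tubb3, Prph and Nefh at 0.09, 0.10 and 0.21. In this list 4 of 6 genes had an unadjusted p under 0.05, beside 17.0% of all genes. The part of this difference in neuronal level in the TPM of the marker genes was not tested. In the Schwann cell list Scn7a stood at −0.03. Satellite glia summed to 535 to 564 against 573 to 604 TPM, with Fabp7, Kcnj10 and Glul at 0.38, 0.10 and −0.07. Endothelial, mural and macrophage medians were −0.04, −0.13 and 0.13. The named genes were Cldn5, Pecam1 and Cdh5 at 0.29, −0.04 and −0.40, Rgs5, Pdgfrb and Acta2 at −0.11, −0.06 and −0.13, and C1qa, Csf1r and Lyve1 at 0.20, −0.03 and 0.26.

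The genes outside the list that ran most closely with it were sought with a score, the mean of the standardised log2(TPM + 0.5) of the 8 marker genes that passed the filter. The score was 0.81, −0.52 and 1.40 in siNC and −0.36, −0.36 and −0.96 in siCLAP, and its Pearson's r with total expected counts was −0.42. Of 16164 other named genes 258 (1.6%) had a Pearson's r above 0.9 with it over the 6 libraries, and the median r was 0.13. The 10 closest, with r from 0.9839 to 0.992, were Wars2, Efemp1, Tmtc2, Mrc2, Cldn11, Axin1, Ascc3, Fam129b, Atm and Igfbp6.

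These 10 differed in how far they ranged. Cldn11 was 10.9, 4.27 and 16.1 TPM in siNC, as above. Efemp1, an extracellular matrix glycoprotein, was at 26.0, 20.4 and 29.3 TPM in siNC and 18.9 to 21.1 TPM in siCLAP, and Mrc2, a collagen uptake receptor, was at 3.59, 2.41 and 4.60 TPM against 2.04 to 2.76 TPM. Tmtc2 and Axin1 ranged only from 15.3 to 16.2 and from 12.9 to 14.0 TPM over the 6 libraries. Among the lists, the median r with the score was 0.90 for the 16 leptomeningeal fibroblast genes and 0.38 for arachnoid barrier cells. It was 0.72 for general fibroblasts, 0.71 for Schwann cells, 0.70 for forkhead factors and 0.68 for dural fibroblasts. Mural cells and the 1 choroid plexus gene stood at 0.69, satellite glia at 0.07, the 2 mesothelium genes at −0.34 and sensory neurons at −0.44. Each r is over 6 libraries and is given as a description.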

How the data were processed

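Per the labels' protocols, L4/5 dorsal root ganglia of mice gave total RNA that was sequenced with the NEBNext Ultra RNA kit, which does not mark strand. Per the submitters' processing notes the tools included FastQC 0.11.8, HISAT2 2.1.0 and featureCounts 1.6.2, with the mm10 build. No source used here states the gene annotation or how reads matching several genes were treated. Each deposited file lists 48401 symbols with TPM values scaled to gene length and library total by the authors, and with expected counts, which are partly fractional (66.5% whole within 1e-06).

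The marker genes, the 20 related lists (168 genes) and the tests were chosen with earlier results of these data known. Expected counts were rounded to whole numbers, scaled by TMM and tested by quasi-likelihood in edgeR 4.0.16 (R 4.3.3) with no covariate, over the 19141 genes whose mean TPM was 1 or more, at a Benjamini-Hochberg adjusted p under 0.05. SEs are the fold change divided by the root of F. With 3 against 3 libraries an exact permutation test of 1 gene cannot give a p below 0.1, so none was run. The script was tested on simulated counts. From each list the text names genes that passed and up to 3 with the highest mean TPM, and others were chosen after their values were seen. Some genes that this rule would name, and the summed level of their list, are not reported here. A floor of 3 counts is 0.0652 CPM in siNC-2, the deepest library, and 0.140 CPM in siNC-3, the shallowest. Intervals and floors cover counting error only. Alternatives were relative log expression scaling, other TPM filters, DESeq2 1.42.0, limma 3.58.1 on log2(TPM + 0.5) and log2(TPM + 0.1), the replicate number as a block, and leaving out each library in turn. Predicted genes were left out when similar genes were sought.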

Additional observations from a re-analysis of the deposited data

How the results depend on the processing

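Over 13 alternatives the 8 marker genes that passed the filter gave 97 fold changes, since a gene that missed an alternative's filter gave none there. Each was compared with the main value by the within-group SD of the gene's log2(CPM + 0.5). Of the 97, 91 kept their sign and stayed within 1 SD, and 4 moved by more than 1 SD without a change of sign. The SD was wide for some genes, such as Igf2 (1.19), whose −1.09 without siNC-3 counted as within it. The other 2 changed sign while moving less than 1 SD (0.401), both for Crabp2. Crabp2 ran from −0.57 (without siNC-2) to 0.0624 (without siNC-3) and stood at 0.03 without siCLAP-3. The median log2 fold change of the marker genes ran from −2.02 to −0.47 with single libraries left out. The count of changed genes was 56, and it was 835 with no TPM filter, 118 at a mean TPM of at least 5, 611 with DESeq2, 0 with limma at either pseudocount, and 0 (without siCLAP-1) to 336 (without siCLAP-3) with single libraries left out, including 4 without siNC-3. Among the related lists it was 0 of 125. With no filter it was 20 of 165, beside 835 of all 30347 genes. At a mean TPM of at least 5 it was 1 of 81, beside 118 of all 13815. With DESeq2 it was 6 of 125, beside 4.38% of the genes given an adjusted p. With single libraries left out it ran from 0 to 12 of 125, the latter without siNC-2, beside 157 of all 19163. The cause of these differences was not tested.

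With the replicate number as a block the counts were 203 of 19141 genes and 2 of 125 in the related lists (Fabp7 and Slc6a13). Deviations of same-numbered libraries from their group means correlated at 0.0531, 0.0115 and −0.0166. siCLAP-2 and siCLAP-3 did not correlate best with the control of their own number. With 3 libraries per group these values cannot decide whether a shared number stands for a shared batch, and no conclusion is drawn from them. Depth limits Slc22a6, Slc22a8 and Aldh1a2 most, with 3, 16 and 14 counts in all of siCLAP.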
